A study of Mus musculus with 12 samples.

Results

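The 9 genes described here, Rgs2, Rgs4, Rgs8, Rgs10, Rgs12, Rgs14, Rgs16, Rgs17 and Rgs20, encode regulators of G protein signalling (RGS proteins) outside the R7 group, which is made up of Rgs6, Rgs7, Rgs9 and Rgs11. They were chosen by symbol, with earlier results of these data known. Each symbol was matched to 1 Ensembl gene of the count table through the GENCODE names for the mouse build GRCm38, so that they are 9 of the 17579 genes in the table. The study sequenced retinal and striatal mRNA of R6/1 mice, whose transgene is exon 1 of the human huntingtin gene with an expanded CAG repeat, and of their wild type (wt) littermates. The 4 groups, 2 tissues of each genotype, held 3 libraries each. All mice were untreated C57Bl/6 males aged 13 to 15 weeks. Each library was made from the pooled RNA of 3 to 4 mice and both tissues came from the same mice, so a replicate is a pool and the spread between single mice is not visible. R6/1 is 1 transgenic line, and no other line was sequenced here.

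An RGS protein speeds up the hydrolysis of GTP by an activated G protein alpha subunit and so shortens the signal of the receptor that activated it. The members fall into families by sequence. In the R4 family, which has little beyond the RGS domain, Rgs2 acts mainly on Gq alpha subunits, Rgs4 and Rgs16 act on Gi/o and Gq subunits, and Rgs8 acts on Gi/o subunits. In the R12 family, Rgs10 is small and is known from microglia and neurons, whereas Rgs12 and Rgs14 are large scaffolds with Ras-binding domains and a GoLoco motif that holds inactive Gi alpha subunits. Rgs17 and Rgs20 belong to the RZ family, which acts on Gz and other Gi/o subunits, and Rgs20 was first known from the retina. In the striatum, Rgs4 is abundant in medium spiny neurons, where G protein signals from dopamine, glutamate and acetylcholine receptors meet.

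The libraries held between 14070445 and 22432431 counts, and levels are given as CPM, counts scaled to a common library size, after TMM scaling, which adjusts for composition. Differences between groups were tested with edgeR's quasi-likelihood test across all genes that had 10 counts or more over the libraries compared, and a gene was called at a Benjamini-Hochberg adjusted p under 0.05. The tissues matched their labels, since the summed level of 9 rod markers was between 62090 and 70334 CPM in wt retina and at most 5.88 CPM in any striatal library. The library wt striatum replicate 2 stood apart, with a mean Spearman correlation of 0.992 to its own group and of 0.994 to the R6/1 striata, so striatal results are also given without it. Within a tissue a gene was listed either at 0 in all 6 libraries or with at least 11 counts over them, so a listed 0 is not read as absence.

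In wt mice, all 9 genes were called different between the tissues, and in 7 of them the retina had the lower level, against 76.3% of all 16864 genes tested being called in either direction. The 7 include Rgs14, whose call rests on striatal counts alone, since it was listed at 0 in every retinal library. Rgs4 had 62.2, 60.4 and 70.6 CPM in the 3 wt retinas and 779, 445 and 680.0 CPM in the 3 wt striata, which is 9.85-fold lower in the retina (log2 fold change -3.30, SE 0.22). Rgs10, Rgs12 and Rgs17 were 8.71-fold, 6.28-fold and 5.76-fold lower in the retina. No library of one tissue overlapped those of the other for any of the 9 genes, with Rgs14 at its listed 0, as for 79.1% of all genes. Rgs2 was lower by 1.44 on the log2 scale (38.7 ± 1.76 CPM against 105 ± 13.1 CPM, SD, n = 3 pools). Rgs8 was nearly level, with 148 ± 3.54 CPM in wt retina and 180.2 ± 8.50 CPM in wt striatum (log2 fold change -0.28, SE 0.06, adjusted p = 0.00189).

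Rgs16 and Rgs20 were the members with more transcript in the retina. Rgs16 had 32.6, 31.5 and 33.7 CPM in wt retina and 3.05, 5.14 and 5.28 CPM in wt striatum, and was 7.26-fold higher in the retina (adjusted p = 2.53e-08). Rgs20 was 1.51-fold higher (adjusted p = 0.0132), but that call was lost without wt striatum replicate 2 (0.0969) or replicate 3 (0.0516), within a range of 1.9e-05 to 0.0969 over all alternatives. Rgs14 was listed at 0 in each of the 6 retinal libraries and had 26.3 to 43.3 CPM in wt striatum, so it is described in the striatum alone and no fold is given between tissues. The R6/1 mice had the same 7 genes lower in the retina, with Rgs14 again at a listed 0, and the same 2 higher. Of all 16885 genes, 73.2% were called in that comparison. On the log2 scale Rgs4 had -2.70, Rgs10 had -2.94 and Rgs16 had 1.74.

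**Figure D1:**
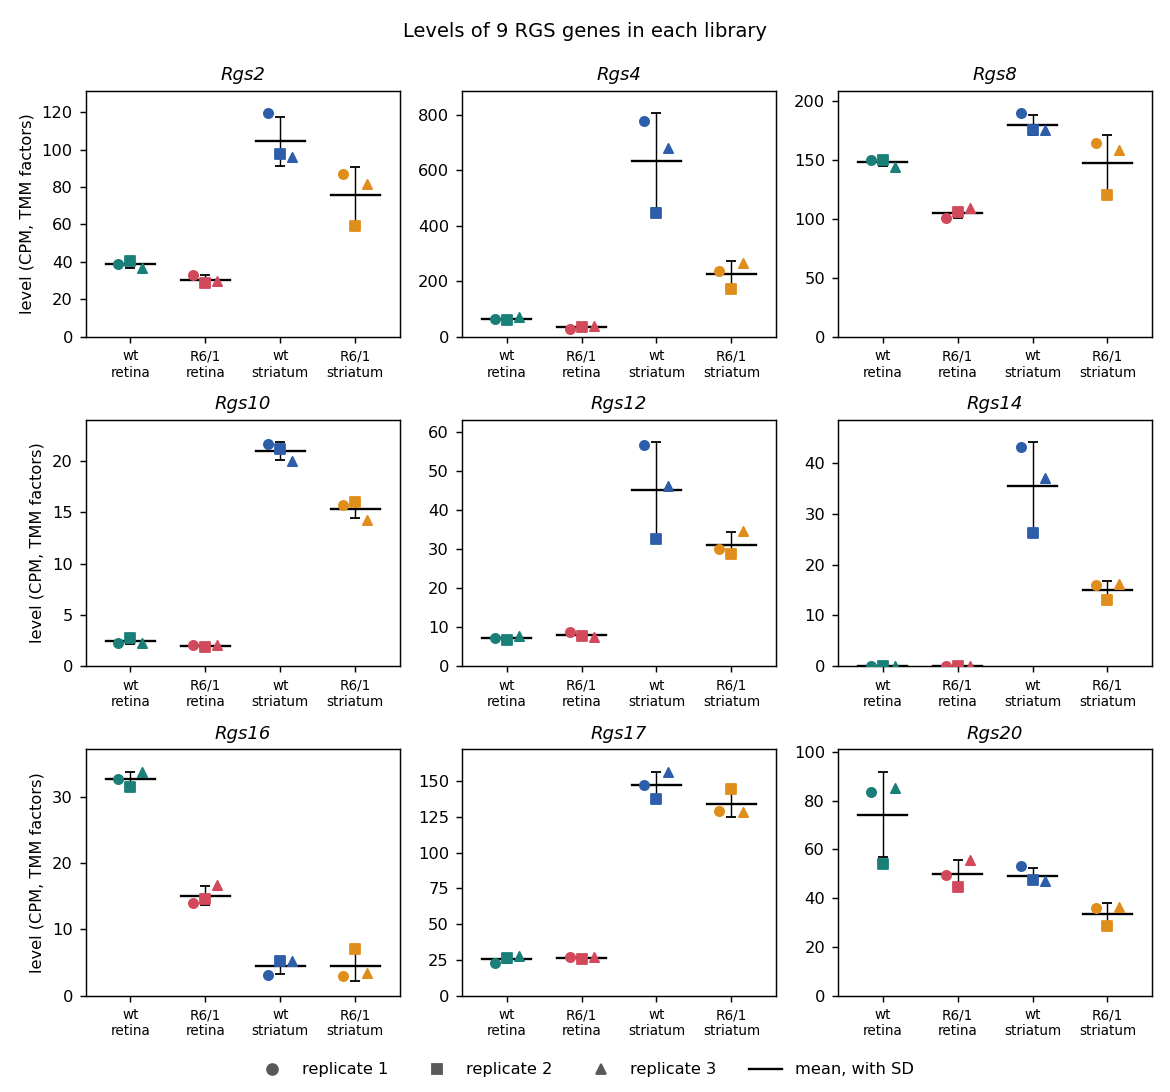
Level of each of the 9 genes in every library, in CPM on a linear axis from 0 for each gene, with marks for the 3 libraries and a line and bar for their mean and SD in each genotype and tissue. Rgs16 is the gene whose 6 retinal libraries, at 14.0 to 33.7 CPM, lie furthest above its striatal ones, at 2.91 to 7.01 CPM, and Rgs14 is listed at 0 in all 6 retinal libraries.

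Divided by exonic length, so that genes can be compared with each other, the levels ran over a wide range within each tissue. In wt striatum Rgs4 stood first with 205 ± 55.4 CPM per kilobase, followed by Rgs2 with 28.8 ± 3.61, and the ranges of these neighbours did not overlap. Rgs8 (18.7) and Rgs17 (17.7), then Rgs10 (12.3) and Rgs20 (11.6), then Rgs14 (8.39) and Rgs12 (5.32) were pairs of neighbours whose library ranges overlapped, and Rgs16 came last with 1.92 CPM per kilobase. In wt retina Rgs4 (20.8), Rgs20 (17.5) and Rgs8 (15.4) were neighbours with overlapping ranges, ahead of Rgs16 (13.9), Rgs2 (10.7), Rgs17 (3.07), Rgs10 (1.41) and Rgs12 (0.847), which were each apart from the next. In R6/1 retina Rgs20 (11.8), Rgs4 (11.1) and Rgs8 (10.9) had overlapping neighbours, while Rgs16 (6.45 CPM per kilobase) stood below Rgs2 (8.38), the reverse of their order in wt retina. In R6/1 striatum Rgs4 was still first, with 72.7 ± 15.9 CPM per kilobase. These levels depend on the length used, and with the longest transcript of each gene Rgs20 instead stood first in wt retina and Rgs10 came directly after Rgs2 in wt striatum.

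**Figure D2:**
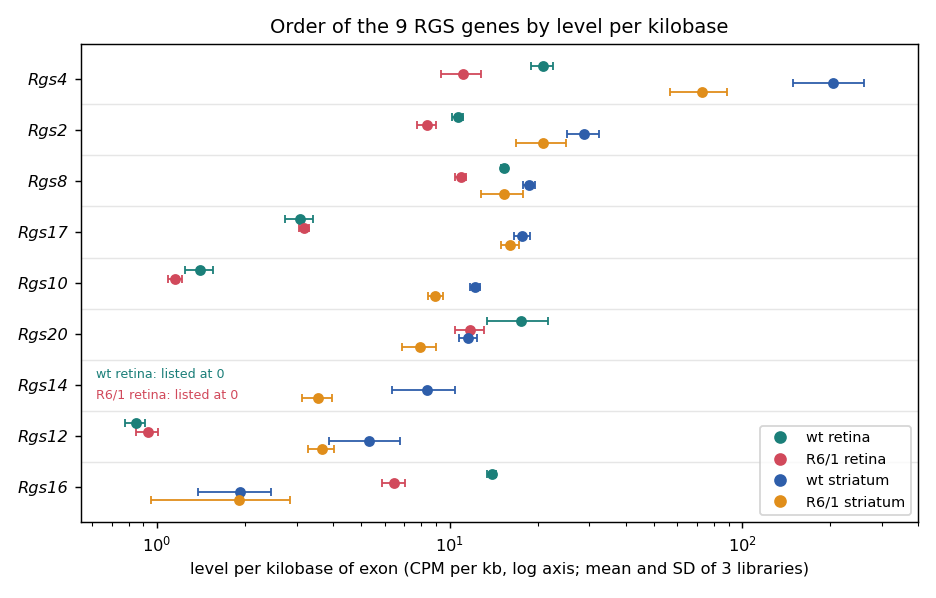
Mean level of the 9 genes in each of the 4 groups, in CPM per kilobase of exon on a log axis, with bars for the SD of 3 libraries. Rgs4 stands far above the other genes in both striatal groups, at 205 and 72.7 CPM per kilobase, and shares the top of the retinal groups with Rgs20 and Rgs8.

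In the R6/1 retina the 4 members that belong to the R4 family (Rgs2, Rgs4, Rgs8 and Rgs16) fell, and none of the other members passed the test. The R4 family has further genes outside the 9, and of these Rgs3 fell, Rgs5 rose and Rgs13 did not pass. These 4 of 8 tested members compare with 12.7% of all 16582 genes that were called lower (22.3% called in either direction), and the median log2 fold change was -0.39 over the 8 members and 0.01 over all genes. It was 0.14 over the 5 other RGS genes tested outside the R7 group. The members were chosen with earlier results of these data known, so their share is not an independent result. All 4 lie on chromosome 1, as does Rgs20, which was not called. Rgs4 lies at chr1:169741477-169747642 and Rgs2 at chr1:143999338-144004161, both on the minus strand. Rgs8 (chr1:153653025-153700323) and Rgs16 (chr1:153740349-153745468) are neighbouring genes on the plus strand with 40025 bases between them. Because the 4 called genes moved together, the 250 bases before a start site of each are shown, from the RefSeq annotation of GRCm38.p6. Capitals mark matches on either strand to TATAAA (the TATA box), CCAAT, the GC box GGGCGG, or TGACG, which is the first part of the cAMP response element TGACGTCA.
Rgs4, chr1:169747643-169747892, minus strand: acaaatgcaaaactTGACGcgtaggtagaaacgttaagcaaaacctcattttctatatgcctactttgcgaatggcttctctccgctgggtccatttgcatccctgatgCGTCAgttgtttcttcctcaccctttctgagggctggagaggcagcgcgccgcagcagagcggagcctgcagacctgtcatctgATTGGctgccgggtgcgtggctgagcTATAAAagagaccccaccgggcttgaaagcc
Rgs2, chr1:144004150-144004399, minus strand: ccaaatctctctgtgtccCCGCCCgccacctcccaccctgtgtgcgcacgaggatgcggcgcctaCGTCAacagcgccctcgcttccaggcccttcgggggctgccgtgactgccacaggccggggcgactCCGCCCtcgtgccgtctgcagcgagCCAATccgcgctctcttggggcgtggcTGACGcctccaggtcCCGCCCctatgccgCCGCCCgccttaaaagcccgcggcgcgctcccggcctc
Rgs16, chr1:153740103-153740352, plus strand: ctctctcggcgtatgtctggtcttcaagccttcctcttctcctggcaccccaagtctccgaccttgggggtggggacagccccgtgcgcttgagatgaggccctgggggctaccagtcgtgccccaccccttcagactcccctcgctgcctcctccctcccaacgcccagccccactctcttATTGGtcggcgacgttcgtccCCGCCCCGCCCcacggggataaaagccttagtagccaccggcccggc
Rgs8, the most upstream of its starts, chr1:153652787-153653036, plus strand: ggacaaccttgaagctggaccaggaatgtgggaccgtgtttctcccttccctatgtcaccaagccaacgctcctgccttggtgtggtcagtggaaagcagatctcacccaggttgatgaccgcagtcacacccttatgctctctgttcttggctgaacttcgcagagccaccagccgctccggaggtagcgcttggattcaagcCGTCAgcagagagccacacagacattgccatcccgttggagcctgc

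None of these motifs was found in all 4 windows. CCAAT was shared by the windows of Rgs4, Rgs2 and Rgs16, and TGACG by those of Rgs4, Rgs2 and Rgs8. The Rgs4 window was the one with a TATA box, whose first base lay 31 bases before the start, a motif found in 12.4% of all 32851 RefSeq promoter windows of this length. It also held TGACG at 236 and 141 bases and CCAAT at 57 bases before the start. The Rgs2 window was the richest in G and C, at 72.4% (median of all promoters 52.4%), with GC boxes at 232, 119, 52 and 38 bases, TGACG at 185 and 67 bases and CCAAT at 94 bases. The Rgs16 window (66.4% G and C) had CCAAT at 68 bases and a pair of overlapping GC boxes at 47 and 42 bases, and the Rgs8 window (57.2%) held 1 match, TGACG at 46 bases. Windows of Rgs8 starts further downstream, not shown here, held CCAAT at 152 and at 100 bases, so what is shared depends on the start. Over all promoters CCAAT was found in 33.8%, GGGCGG in 32.7% and TGACG in 17.8%. The whole element TGACGTCA (1.55% of all promoters) and TAATCC, the core bound by the photoreceptor factor Crx (6.25%), had no match in the 10 windows of the 7 members with an entry. A match is a run of letters and not a measured binding site.

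Among these 4 genes Rgs16 had the largest retinal change. Its 32.6, 31.5 and 33.7 CPM in wt retina compare with 14.0, 14.6 and 16.6 CPM in R6/1 retina, so that every R6/1 library lay below every wt library. R6/1 retinas thus had 46.3% of the wt level (log2 fold change -1.08, SE 0.09, adjusted p = 2.28e-07). Rgs4 had 62.2, 60.4 and 70.6 CPM in wt retina and 28.8, 34.7 and 39.5 CPM in R6/1 retina. Here, too, the groups did not overlap, and the R6/1 level was 53.3% of wt (log2 fold change -0.88, SE 0.10, adjusted p = 3.77e-05). Rgs8, the most abundant member in the retina by CPM, had 150.4, 150.3 and 144 CPM in wt and 101, 106 and 109 CPM in R6/1 retinas. Its replicates were the tightest of these, and it fell to 70.9% of wt (log2 fold change -0.47, SE 0.06, adjusted p = 1.62e-05). Rgs2 had 39.0, 40.2 and 36.8 CPM in wt and 33.0, 28.5 and 29.6 CPM in R6/1 retinas. This was the smallest of the 4 changes, to 78.6% of wt (log2 fold change -0.31, SE 0.08, adjusted p = 0.00583), and its call was lost when all 12 libraries shared 1 fit (0.116, in a range of 0.00341 to 0.116 over all alternatives).

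The R12 and RZ members of the retina did not pass the test. Rgs10 had few counts there, 33 to 41 per library, with 2.21, 2.71 and 2.30 CPM in wt and 2.02, 1.85 and 2.05 CPM in R6/1 retinas. These groups did not overlap, yet the difference was not called (log2 fold change -0.25, SE 0.23, adjusted p = 0.471). With Rgs10, 5 of the 8 tested members had all R6/1 libraries below all wt libraries, against 23.0% of all genes. Rgs12 had 7.19 ± 0.560 CPM in wt and 7.88 ± 0.655 CPM in R6/1 retinas (SD, n = 3 pools; adjusted p = 0.428), and Rgs17 had 25.5 ± 2.73 and 26.4 ± 0.977 CPM (adjusted p = 0.585). For both genes the libraries of the 2 genotypes overlapped.

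Rgs20 (chr1:4909576-5070285, minus strand) was the retinal member whose result changed sides of the threshold in several fits. It had 83.7, 54.1 and 85.1 CPM in wt and 49.4, 44.7 and 55.7 CPM in R6/1 retinas. Wt replicate 2 lay inside the range of the R6/1 libraries, and the difference was not called (log2 fold change -0.55, SE 0.21, adjusted p = 0.147). Without that library the log2 fold change was -0.73 and the adjusted p was 3.94e-05, the lowest in a range up to 0.309 over all alternatives. With all libraries kept it was also called with limma-voom (0.0269), with a non-robust spread (0.0272), in 1 fit over 12 libraries (0.0294) and with the replicate block (0.00071, or 0.000172 in DESeq2), which makes 6 of 16 alternatives. Same-numbered wt and R6/1 retinas did not deviate together (correlations -0.0943 to 0.124), so the blocked fits have no pairing behind them in this tissue. The gene overlaps Atp6v1h, a proton pump subunit on the opposite strand with 26434 counts over the 12 libraries. The kit marks strand, but the sources used here do not say whether the quantification used it.

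**Figure D3:**
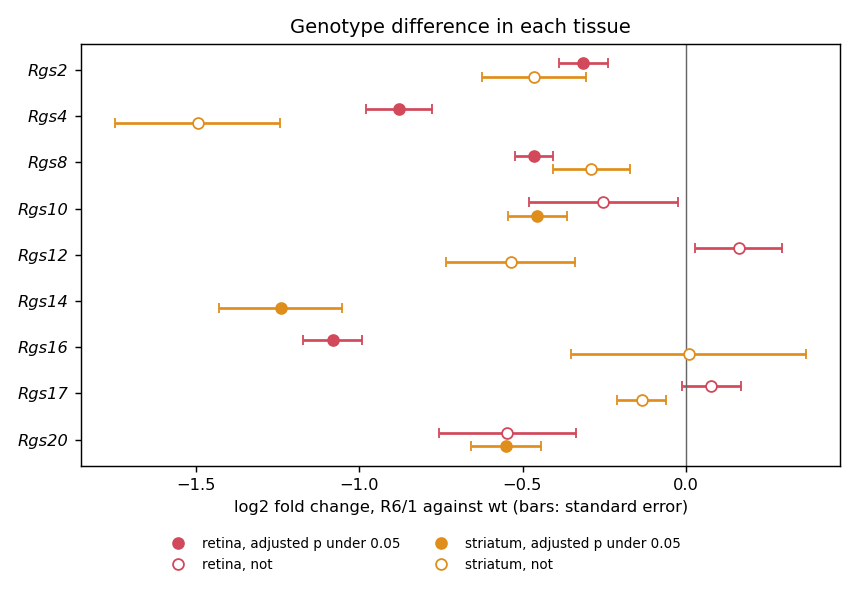
Log2 fold change of R6/1 against wt for each of the 9 genes in the retina and in the striatum, with bars of 1 standard error and filled points for an adjusted p under 0.05 in edgeR's quasi-likelihood test. In the retina Rgs2, Rgs4, Rgs8 and Rgs16 are filled, and in the striatum Rgs10, Rgs14 and Rgs20, whereas Rgs4 has the largest striatal value, -1.50, with an open point.

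In the R6/1 striatum, 3 members were called lower, Rgs14, Rgs10 and Rgs20. These 3 of 9 tested members compare with 1.32% of all 16728 genes that were called lower (1.45% called in either direction), and the median log2 fold change was -0.46 over the members and 0.01 over all genes. Over the 6 other RGS genes tested outside the R7 group it was 0.25, with 0 called. Since the members were chosen with earlier results of these data known, their share is not an independent result. None of the 3 called members was among the 4 called lower in the retina, where Rgs14 was listed at 0 and not tested. Of all genes tested in both tissues, 0.394% were called lower in both. Rgs4, called in the retina, had an adjusted p of 0.0514 in the striatum, so this split rests on the threshold. Rgs14 (chr13:55369732-55384687, plus strand), the scaffold known from neurons for its place in synaptic plasticity, had 43.3, 26.3 and 37.1 CPM in the wt striata against 16.0, 13.0 and 16.2 CPM in the R6/1 striata. The groups did not overlap, and the lowest wt value was that of replicate 2, so that the R6/1 level was 42.4% of wt (log2 fold change -1.24, SE 0.19, adjusted p = 0.0298).

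Rgs10 (chr7:128373621-128418758, minus strand) had 21.7, 21.2 and 20.0 CPM in the wt striata against 15.7, 16.0 and 14.3 CPM in the R6/1 striata. Its replicates lay close together, and it fell to 73.1% of wt (log2 fold change -0.45, SE 0.09, adjusted p = 0.0472). Rgs20 had 53.1, 47.3 and 47.0 CPM in the wt striata against 36.1, 28.6 and 36.2 CPM in the R6/1 striata. It fell to 68.5% of wt (log2 fold change -0.55, SE 0.11, adjusted p = 0.045), again with no overlap between the groups. In bulk tissue, fewer cells of a type and less RNA per cell cannot be told apart. Beside the change of Rgs10, the summed level of 10 microglial markers ranged from 442 to 486 CPM in the wt libraries and from 399.8 to 439 CPM in the R6/1 libraries with none of them called, and their part in the result was not tested. In the retina the same markers had 49.2 to 51.1 CPM in wt and 69.0 to 78.9 CPM in R6/1. Of the 10 markers 6 rose there, against 22.3% of all genes called in either direction. The retinal difference of Rgs10 was not called (adjusted p = 0.471), and the part of these markers in it was not tested.

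None of the 4 R4 members passed in the striatum in edgeR's test as reported. With the replicate block Rgs4 (adjusted p = 6.05e-06) and Rgs2 (0.0192) were called. DESeq2 without a block also called both, and limma-voom called Rgs4. Rgs4 had the largest difference of all members, with 779, 445 and 680.0 CPM in the wt striata against 239, 171 and 266 CPM in the R6/1 striata. Every R6/1 library lay below every wt library, and the R6/1 level was 35.5% of wt, 2.82-fold lower (log2 fold change -1.50, SE 0.25), with an adjusted p of 0.0514. Rgs2 had 119.6, 97.9 and 96.0 CPM in the wt striata against 87.0, 59.0 and 81.8 CPM in the R6/1 striata, which did not overlap (log2 fold change -0.46, SE 0.16, adjusted p = 0.179). Rgs8 had 190.0, 175 and 175 CPM in the wt striata against 164, 120.1 and 159 CPM in the R6/1 striata (log2 fold change -0.29, SE 0.12, adjusted p = 0.225), again without overlap. With Rgs10, Rgs14 and Rgs20, 6 of the 9 members had all R6/1 striata below all wt striata, against 12.7% of all genes. Rgs16 had 3.05, 5.14 and 5.28 CPM in the wt striata against 2.91, 7.01 and 3.46 CPM in the R6/1 striata, and R6/1 replicate 2 was above all other libraries. Its estimated difference was 0.01 on the log2 scale with an SE of 0.36, the widest of the striatal members, from 47 to 163 counts per library.

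Of the remaining striatal members, Rgs12 had 56.8, 32.5 and 46.2 CPM in the wt striata against 30.1, 28.7 and 34.7 CPM in the R6/1 striata (log2 fold change -0.54, SE 0.20, adjusted p = 0.204). Wt replicate 2 was below R6/1 replicate 3, and without it the log2 fold change was -0.72 and the adjusted p 0.00599, in a range of 0.00237 to 0.45 over all alternatives. Rgs17 had 147 ± 9.43 CPM in the wt striata against 134 ± 9.30 CPM in the R6/1 striata (SD, n = 3 pools), with overlapping libraries (log2 fold change -0.13, SE 0.08, adjusted p = 0.362).

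The striatal calls depended on which libraries were kept, those numbered 2 among them. Wt replicate 2 was the lowest wt library for 5 of the 9 genes (Rgs4, Rgs8, Rgs12, Rgs14 and Rgs17) and the highest for 0, while wt replicate 1 was the highest for 7. R6/1 replicate 2 was the lowest R6/1 library for 6 genes (Rgs2, Rgs4, Rgs8, Rgs12, Rgs14 and Rgs20) and the highest for the other 3. The replicate number was also used as a block, which compares each R6/1 library with the wt library of its number. That pairing was inferred from these data and is not given by the labels. With this block 5 members were called lower, against 7.11% of all genes. They were Rgs4 (adjusted p = 6.05e-06, range over all alternatives 1.31e-53 to 0.182), Rgs14 (3.62e-05, range 4.3e-12 to 0.148), Rgs20 (0.00151, range 0.000799 to 0.23), Rgs10 (0.0107, range 0.0107 to 0.228) and Rgs2 (0.0192, range 0.00156 to 0.432). DESeq2 called the same 5 genes, against 5.57% of all genes. Without wt replicate 2, Rgs4, Rgs10, Rgs12, Rgs14 and Rgs20 were called, against 7.25% of all genes, and without both libraries numbered 2 the genes called were 7, all but Rgs8 and Rgs16, against 10.2%. In the other direction, 0 members were called without wt replicate 1, without wt replicate 3, or without R6/1 replicate 1 or 3, and Rgs20 alone was called without R6/1 replicate 2.

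**Figure D4:**
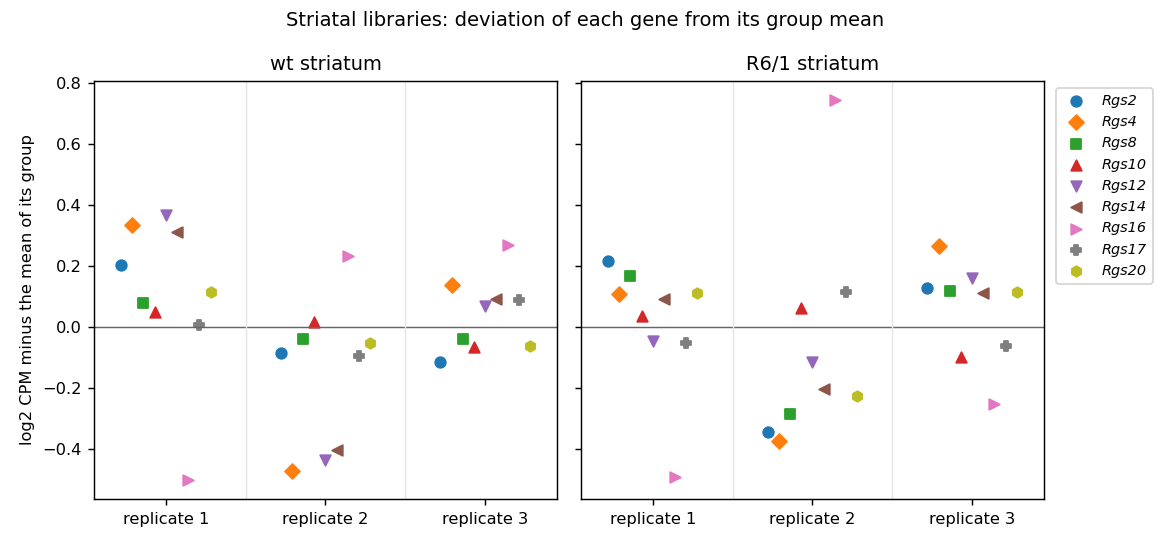
Deviation of each striatal library from the mean of its genotype, in log2 CPM, with 1 mark for each of the 9 genes, for replicates 1, 2 and 3 of wt (left) and of R6/1 (right). Rgs2, Rgs4, Rgs8, Rgs12, Rgs14 and Rgs20 lie below 0 in the library numbered 2 of both genotypes.

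**Figure D5:**
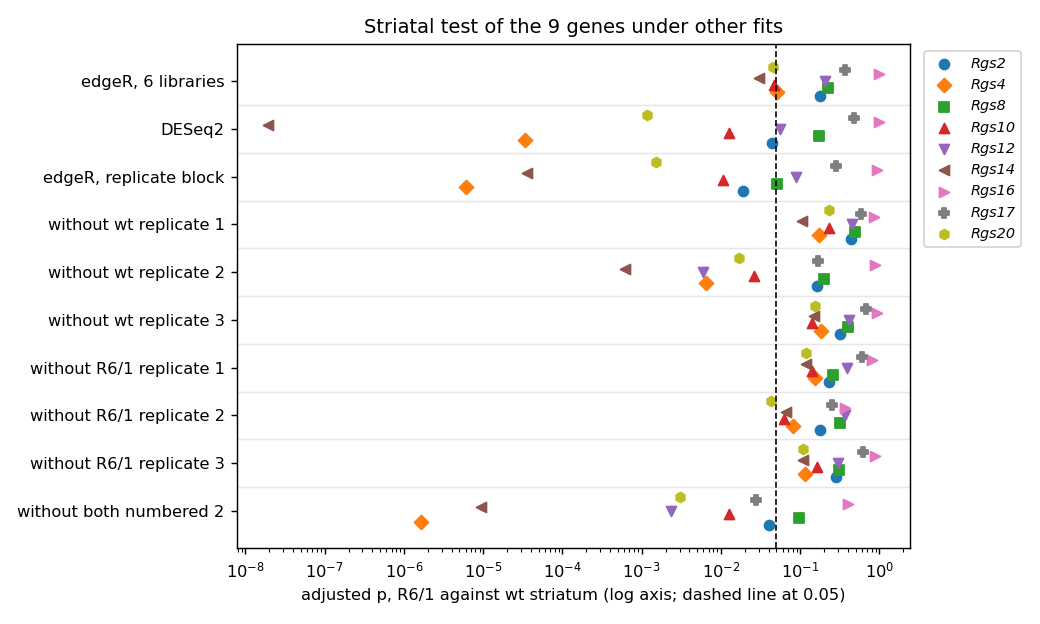
Adjusted p for R6/1 against wt striatum, on a log axis, of the 9 genes (marks) in the test as reported and in other fits (rows), with a dashed line at 0.05. Rgs10, Rgs14 and Rgs20 are past the line as reported, with the replicate block, in DESeq2 and without wt replicate 2, and Rgs16 is past it in no fit shown.

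Whether a genotype effect differed between the tissues was tested directly as an interaction over all 12 libraries. For 0 of the 8 members tested was the difference called by edgeR, against 8.24% of all 15731 genes. The 2 members with the lowest p were Rgs16 and Rgs12. Rgs16 had a retinal minus striatal difference of -1.14 on the log2 scale (SE 0.38, adjusted p = 0.0923), and Rgs12 had 0.66 (SE 0.25, adjusted p = 0.133). DESeq2 called 1 member, Rgs16 (adjusted p = 0.0222, range over all alternatives 0.015 to 0.175), against 10.9% of all genes. The Rgs12 difference was called without wt striatum replicate 2 (adjusted p = 0.00382, range over all alternatives up to 0.28), against 12.8% of all genes called then. It was called for Rgs16 without R6/1 striatum replicate 1 (adjusted p = 0.0377) and for Rgs8 without R6/1 striatum replicate 2 (0.0287, range over all alternatives 0.0217 to 0.649). Without both libraries numbered 2 the difference was called for Rgs4, Rgs8 and Rgs12, against 13.8% of all genes. For Rgs4 the difference was 0.59 (SE 0.32, adjusted p = 0.31), for Rgs8 -0.21 (SE 0.13, adjusted p = 0.371), for Rgs2 0.12 (SE 0.19, adjusted p = 0.754) and for Rgs20 -0.03 (SE 0.23, adjusted p = 0.962). A call in 1 tissue and not in the other therefore does not show that these genes responded differently. Of the 8 members tested in both tissues, those called lower in both numbered 0 with edgeR (0.394% of all genes), 2 with DESeq2 (Rgs2 and Rgs4, 1.58% of all genes), 2 with limma-voom (Rgs4 and Rgs20, 0.432%) and 3 with the replicate block (Rgs2, Rgs4 and Rgs20, 2.06%). In the retina alone DESeq2 called 20.5% of all genes in either direction. The block called 12.9% lower there, although the numbers do not pair wt and R6/1 retinas.

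Markers of retinal and striatal cell types were read in the same comparisons. In the retina all 9 rod markers and all 6 cone markers fell, with the rod sum at 18987 to 26772 CPM in R6/1 retinas, and 5 of 7 amacrine and 6 of 9 ganglion cell markers fell as well. Among 8 bipolar cell markers 7 fell and 1 rose, and 3 of 5 blood markers fell. In the striatum the summed level of 13 medium spiny neuron markers was 6102, 4430 and 4922 CPM in wt and 2727, 1451 and 2669 CPM in R6/1 mice, with 1 marker called lower. In both genotypes the lowest sum was that of the library numbered 2. Of 3 cholinergic interneuron markers 2 fell, with a sum of 47.0 to 61.3 CPM in the wt libraries and 22.5 to 26.7 CPM in the R6/1 libraries, and 2 of 5 blood markers fell. The sum of 6 cortical excitatory neuron markers was 599.8, 240.1 and 660.0 CPM in the wt striata against 224, 308 and 335 CPM in the R6/1 striata, with none called. Among the wt striata it was lowest in replicate 2, as were Rgs4, Rgs8, Rgs12, Rgs14 and Rgs17. Among the R6/1 striata it was lowest in replicate 1, whereas Rgs4, Rgs8, Rgs12 and Rgs14 were lowest in replicate 2 and Rgs17 in replicate 3. Beside these marker counts, 12.7% of all genes were called lower in the retina (22.3% in either direction) and 1.32% were called lower in the striatum. The part of these cell types in the results for the members was not tested.

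Genes with the pattern most like that of each member were sought over the 12 libraries after the mean of each tissue was subtracted, among 12883 genes with a mean of at least 1 CPM. The values describe shared deviations by genotype and library together. That these genes share a member's genotype difference follows from how they were picked and is no separate result. For Rgs4 they were Car11, Rap1gap and Ndor1 (Pearson's r of 0.99, 0.98 and 0.98). Rap1gap, an inactivator of the small G protein Rap1, fell by 0.42 on the log2 scale in the retina and by 0.57 in the striatum (adjusted p = 0.000193 and 0.0298), and Car11 fell by 0.48 and 0.95 (adjusted p = 0.00254 and 0.0467). For Rgs2 they included Ric8b, an exchange factor and chaperone of G protein alpha subunits, and Angel2 (0.99 and 0.97). For Rgs8 they were Cpne5, Syt6 and Cacna1h, a T-type calcium channel (all 0.98), which were called lower in the retina and not in the striatum.

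For Rgs16 the nearest genes were Gm37515, Gprc5b and Adcy6, an adenylyl cyclase inhibited by Gi (0.97, 0.96 and 0.96), and Adcy6 fell by 0.59 in the retina with a value of 0.03 in the striatum. Among the nearest genes of Rgs20 were Kit and Dlg2 (0.94 and 0.93), while Rgs10 was nearest to Fam163a, Txnl4a and Zcwpw1 (0.96, 0.95 and 0.95) and Rgs12 to Selenoi, Mtpn and Fam124a (0.95, 0.94 and 0.94). Rgs17 had the weakest likeness, to Glrx5, Eif1ad and Med10 (0.91, 0.88 and 0.86). Rgs14 was compared over the 6 striatal libraries alone, where Pttg1ip, Dglucy and Ppp1r9b, which encodes spinophilin, a scaffold known to bind RGS proteins, reached 1.00 with 13858 genes searched. Likeness over so few libraries says nothing of a shared function.

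The other RGS genes did not move as 1 group with the members. In the retina 1 of the 5 tested genes fell and 2 rose, against 22.3% of all genes called in either direction. Rgs3, an R4 gene, had 40.2 ± 2.41 CPM in wt and 21.4 ± 1.76 CPM in R6/1 retina and fell by 0.88 on the log2 scale (SE 0.08, adjusted p = 7.27e-07). Rgs13, also of the R4 family, had a log2 fold change of -0.80 (SE 0.30) and was not called (adjusted p = 0.0639). Rgs22 rose by 1.63 on the log2 scale (adjusted p = 1.26e-06), and Rgs5, an R4 gene known from pericytes that lies 45663 bases from Rgs4 on chromosome 1, rose by 0.24 (adjusted p = 0.0117). None of the 6 tested passed in the striatum, also with the replicate block. Of the R7 genes and their partners, 7 of 7 fell in the retina and 1 of 7 (Rgs11, by 1.22 on the log2 scale) in the striatum, or 4 of 7 with the replicate block. Of all genes, 12.7% were called lower in the retina and 1.32% in the striatum, or 7.11% with the block.

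Of the alpha subunits that RGS proteins act on, 4 of 7 in the Gi/o/z group fell in the retina. They were the rod and cone transducins Gnat1 and Gnat2, Gnaz (log2 fold change -0.33, adjusted p = 0.00185) and Gnao1 (-0.23, adjusted p = 0.00952). In the striatum 0 of 6 passed, or 1 (Gnao1) with the replicate block. Of the Gq/11 subunits 1 of 3 rose in the retina (Gna14, by 0.46, adjusted p = 0.0492, but 0.0672 with the replicate block and 0.149 with DESeq2), and 0 of 4 passed in the striatum. Of the Gs/olf and G12/13 subunits 1 of 4 rose in the retina and 0 of 4 passed in the striatum, or 1 with the replicate block. The beta and gamma subunits went both ways in the retina, with 5 of 16 lower and 4 higher, and 1 of 16 rose in the striatum, where 1 was also lower with the replicate block. Among 6 GoLoco proteins and Ric8 exchange factors, which handle inactive alpha subunits, 5 fell in the retina, with Gpsm1 at -0.55 (adjusted p = 1.39e-05), and 0 of 5 passed in the striatum, or 1 with the replicate block. Beside these counts, 22.3% of all genes were called in either direction in the retina (12.7% lower) and 1.45% in the striatum. With the block 7.11% of all genes were called lower in the striatum.

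Upstream and downstream of these proteins, 15 of 27 tested Gi- and Gq-coupled receptors fell in the retina and 1 rose, among them the bipolar cell receptor Grm6 (-0.56) and the serotonin receptor Htr2a (-1.44). In the striatum 4 of 27 fell and 1 rose, or 12 and 1 with the replicate block. The cannabinoid receptor Cnr1 had -1.23 (adjusted p = 0.0321) and Grm4 had -0.75 (adjusted p = 0.0227), while Htr2c rose by 0.52 (adjusted p = 0.0453). Of 14 effectors of Gi/o and Gq, 5 fell in the retina, with the potassium channel Kcnj9 and the kinase Prkca each by 0.72 to 0.73 on the log2 scale, and 1 fell in the striatum, Prkcb (-0.91, adjusted p = 0.0492), or 4 with the replicate block and 6 with DESeq2. None of 7 receptor kinases and arrestins passed in either tissue, while 1 of 7 was called lower in the striatum with the replicate block and 1 with DESeq2. Of 10 Ras and MAPK partners of Rgs12 and Rgs14, 2 rose in the retina, among them Mapk3 by 0.24, and 1 fell in the striatum, Hras by 0.68 (adjusted p = 0.0191), or 3 with the replicate block. Of the activity-induced immediate early genes 1 of 12 fell and 2 rose in the retina, and 2 of 13 fell in the striatum, or 8 of 13 with the replicate block, among them Homer1 (log2 fold change -1.16, adjusted p = 0.0412 without the block). These list counts stand against 22.3% of all genes called in either direction in the retina (12.7% lower). In the striatum 1.45% of all genes were called (1.32% lower), with 7.11% lower under the block and 5.57% lower in DESeq2.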

How the data were processed

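RNA of retina and striatum was sequenced on 12 libraries, in 4 groups of 3. According to the study's methods and the submitters' processing notes, the authors trimmed the reads with Trimmomatic, quantified them with Salmon on GRCm38 (mm10), and removed genes with under 10 counts. The deposited values are estimated counts per gene, which were rounded to whole numbers. Groups were taken from the labels. Genes with at least 10 counts over the libraries compared were fitted in edgeR 4.0.16 (R 4.3.3) by the robust quasi-likelihood test with TMM scaling and Benjamini-Hochberg adjustment, 1 fit per comparison, and the tissue difference of genotype effects was an interaction over 12 libraries. DESeq2 1.42.0, which the study used, and limma-voom (limma 3.58.1) were alternatives, with other scalings, filters, a replicate block and left-out libraries. CPM per kilobase used the exonic length of each gene in GENCODE M21.

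Same-numbered libraries deviated together between wt and R6/1 striata (correlations 0.257 to 0.329) and between R6/1 retinas and striata (0.119 to 0.242), so these numbers were taken as pairs. This choice was inferred from these data, and striata of different numbers, wt replicate 1 and R6/1 replicate 3, reached 0.240. Same-numbered libraries did not deviate together in the other comparisons (lowest -0.0943), which include wt retinas with wt striata (-0.0261 to 0.0195). No label names the pools of mice behind a number, and whether libraries came from separate litters is not stated. Library totals of 14070445 to 22432431 counts limit genes with few counts, such as Rgs10 in the retina and Rgs16 in the striatum.

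The 9 genes, the pathway and marker lists, the motifs and the rule for named genes (every member, up to 4 genes per list by p, and 3 like genes per member) were chosen with earlier results of these data known. RefSeq promoter windows matched 7 of the 9 genes. Some genes that this rule would name are not reported here.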

Additional observations from a re-analysis of the deposited data

Results flagged for a closer look

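For none of the 9 genes was the genotype effect called different between retina and striatum by edgeR's interaction test over the 12 libraries. Of the other genes named in the text, 9 were flagged because this difference (retina minus striatum, log2 scale, Benjamini-Hochberg adjusted p) was called.

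In 4 of them the retinal value was the lower one. Rgs3 had a difference of -0.97 (SE 0.21, adjusted p = 0.0131), with -0.88 in the retina and 0.05 in the striatum. Htr2c had -1.09 (SE 0.17, adjusted p = 0.00174), falling by 0.53 in the retina and rising by 0.52 in the striatum. Adcy6 had -0.66 (SE 0.17, adjusted p = 0.0298) and Gpsm1 had -0.59 (SE 0.11, adjusted p = 0.00478).

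In the other 5 the striatal value was the lower one. Homer1 had 1.09 (SE 0.21, adjusted p = 0.0111), Cnr1 had 1.00 (SE 0.23, adjusted p = 0.0237), Ppp1r9b had 0.73 (SE 0.14, adjusted p = 0.00672), Prkcb had 0.72 (SE 0.19, adjusted p = 0.0346) and Hras had 0.72 (SE 0.14, adjusted p = 0.00571).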

How the results depend on the processing

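The 4 retinal calls (4 to 5 without 1 library) and the tissue differences of the wt (8 to 9) and R6/1 mice (9 under every left-out library) kept their counts within 1.5 times the reported ones. The striatal count of 3 did not. It was 5 with the replicate block, 5 with DESeq2, 6 with DESeq2 and the block, 7 without both striatal libraries numbered 2, 0 at an adjusted p under 0.01, and 0 to 5 without 1 library. The number of members whose genotype effect differed between tissues was 0 as reported, 1 with DESeq2, 1 with DESeq2 and the replicate block, 3 without both libraries numbered 2, and 0 to 1 without 1 library. The cause was not tested. In the other comparisons the block changed the call of Rgs20 in the retina (adjusted p = 0.00071), where the numbers do not pair the libraries, and no other call.

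Signs turned for values near 0. Rgs17 in the retina was -0.0057 without wt replicate 1 (range -0.0057 to 0.14). Rgs16 in the striatum was -0.0029 with DESeq2, -0.0090 with limma-voom, -0.040 with the block, -0.066 with DESeq2 and the block, -0.38 without both libraries numbered 2, and -0.49 to 0.23 without 1 library. The tissue difference of Rgs2 was -0.040 to 0.23 without 1 library. That of Rgs20 was 0.0058 with limma-voom, 0.0043 with library totals, 0.00016 with a block by pool of mice (chosen after seeing the data), and -0.21 to 0.084 without 1 library.

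Library totals in place of TMM moved the median log2 fold change over all genes to 0.13 (retina) and 0.12 (striatum). Rgs4 and Rgs14 were then the striatal genes called, with Rgs10 at 0.0706 and Rgs20 at 0.0502. Rgs2 in the retina was at 0.0495 with library totals and 0.104 with DESeq2 and the block.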
